A study of Homo sapiens with 4 samples.

Results

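A set of 44 genes of DNA replication licensing and S phase was described in TOV-112D, an ovarian cancer cell line of human origin, given palmitic acid (PA), a saturated fatty acid, or bovine serum albumin (BSA), its usual carrier, as the negative control. The genes were found by symbol in the deposited table of 28973 genes, and all 44 were present. They were placed in 8 roles, which are origin licensing, the replicative helicase, DNA polymerases and primase, the sliding clamp and its loader, flap processing with ligation and uracil removal, nucleotide supply, chromatin assembly, and the E2F factors.

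RNA was sequenced from 2 libraries labelled PA, of cells given palmitic acid at 200 µM for 24 h, and from 2 libraries labelled BSA, to which the labels give the same 200 µM and 24 h. All 4 came from TOV-112D cells grown in RPMI-1640 with fetal bovine serum, penicillin and streptomycin. The labels conflict: the sample description of the PA libraries names an SPTLC2 knockdown, while the treatment text of all 4 libraries also mentions shCON and shZDHHC15 cells. SPTLC2, a subunit of the serine palmitoyltransferase that starts sphingolipid synthesis, had 2194 and 1740 counts in the libraries labelled PA, against 1524 and 1080 counts in the libraries labelled BSA. ZDHHC15, a palmitoyltransferase, had 190083 and 167798 counts in the libraries labelled PA, against 291 and 225 counts in the libraries labelled BSA. Neither gene was therefore lower in the libraries labelled PA, and ZDHHC15 stood at a log2 fold change of 9.69 ± 0.45 (SE, edgeR adjusted p = 0.0544). That adjusted p was the smallest over all genes tested. The libraries labelled PA thus differ from those labelled BSA in ZDHHC15 counts. Whether they also differ by palmitic acid cannot be told from the labels. The part of palmitic acid and of ZDHHC15 in the values below cannot be told apart. Every direction below is therefore between libraries labelled PA and libraries labelled BSA. Separate cultures are stated for neither group, so the p-values rest on the differences between the libraries of a group, and these may be purely technical.

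Before a chromosome can be copied, each origin is licensed in G1. The origin recognition complex, CDC6 and CDT1 load the MCM ring onto DNA, and geminin (GMNN) binds CDT1 to stop a second loading in the same cycle. At the start of S phase CDC45 and the GINS complex join the ring to form the active helicase, primase and polymerase alpha lay down primers, and PCNA, a sliding clamp loaded by replication factor C, holds polymerases delta and epsilon on the template. E2F1 and E2F2 are transcription factors that activate many of these genes at the G1 to S transition.

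Total counts were 29662410 and 23722074 in the libraries labelled PA, and 28657038 and 31695944 in the libraries labelled BSA. The lowest count of a replication gene in any library was 81 and the highest 32928, so all 44 passed the filter on low counts. Mitochondrial genes took 4.56% and 3.70% of counts in the libraries labelled PA, against 3.75% and 1.88% in the libraries labelled BSA. Of the epithelial and ovarian tumour markers, KRT8, KRT18, KRT7, FOLR1 and MSLN were abundant, while EPCAM, CDH1, KRT19 and WT1 were near 0 in all 4 libraries. Their summed level was 7068 and 7062 CPM in the libraries labelled PA, against 3372 and 4478 CPM in the libraries labelled BSA. FOLR1 alone made up 3736 and 3445 CPM of it under PA, against 1172 and 1524 CPM under BSA. CPM are read counts scaled to a common library total, adjusted by TMM factors unless library totals are named. Mesenchymal markers summed to 735 and 968 CPM in the libraries labelled PA, against 877 and 650 CPM in the libraries labelled BSA, with COL1A2 at 0 counts. Blood cell markers summed to 2.75 and 2.17 CPM in the libraries labelled PA, against 3.82 and 7.18 CPM in the libraries labelled BSA, with CD3E, HBB and LYZ at no more than 3 counts. Endothelial markers summed to 3.44 and 3.22 CPM in the libraries labelled PA, against 0.268 and 0.533 CPM in the libraries labelled BSA. The part of these markers, and of the mitochondrial share, in the values below was not tested.

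Replication genes took a smaller share of the counts in the libraries labelled PA, at 0.444% and 0.457%, against 0.671% and 0.834% in the libraries labelled BSA. The median log2 fold change of the 44 genes was -0.77, beside -0.12 over the 17449 genes tested. Of the 44, 42 were below 0 and 2 (GINS4 and POLA2) above 0, beside 9754 below and 7695 above of all genes tested. In bulk RNA, fewer cells in S phase and less RNA per cell cannot be told apart. No replication gene passed the edgeR quasi-likelihood test at an adjusted p of 0.05, and 0% of all genes tested did. Their adjusted p-values ran between 0.0689 for PCNA and 0.913 for ORC6. At an unadjusted p under 0.05, 17 of the 44 were lower in the libraries labelled PA, beside 11.2% of all genes tested, and 1 (POLA2) was higher, beside 13.1%. By DESeq2, 6 were called lower in the libraries labelled PA (GINS3, PRIM1, PCNA, RFC4, UNG and RRM2), beside 4.34% of all genes, and 0 higher, beside 6.11%. By limma-voom, 0 were called, and 1 gene of all those tested. With no filter on low counts, edgeR called PCNA, RFC4, UNG and RRM2 lower in the libraries labelled PA, beside 1.66% of all genes. That fit called 0 higher, beside 3.06%.

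The TMM-normalised CPM of both libraries labelled PA lay below both libraries labelled BSA for 29 of the 44 genes, beside 29.1% of all genes tested. They lay above both for GINS4 and POLA2 alone, beside 28.9% of all genes. The 2 libraries labelled PA resembled each other closely for these genes, and the 2 labelled BSA did not. All 44 genes were within 1.5-fold between the PA libraries, with log2 ratios of replicate 2 over replicate 1 between -0.21 (PRIM2) and 0.42 (RFC3). Between the BSA libraries 21 genes were within 1.5-fold, and the same ratio ran between -2.56 (POLE2) and 1.01 (E2F1). The SD of that log2 ratio over the 44 genes was 0.13 for PA and 0.90 for BSA, beside 0.48 and 1.04 over all genes tested.

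**Figure D1:**
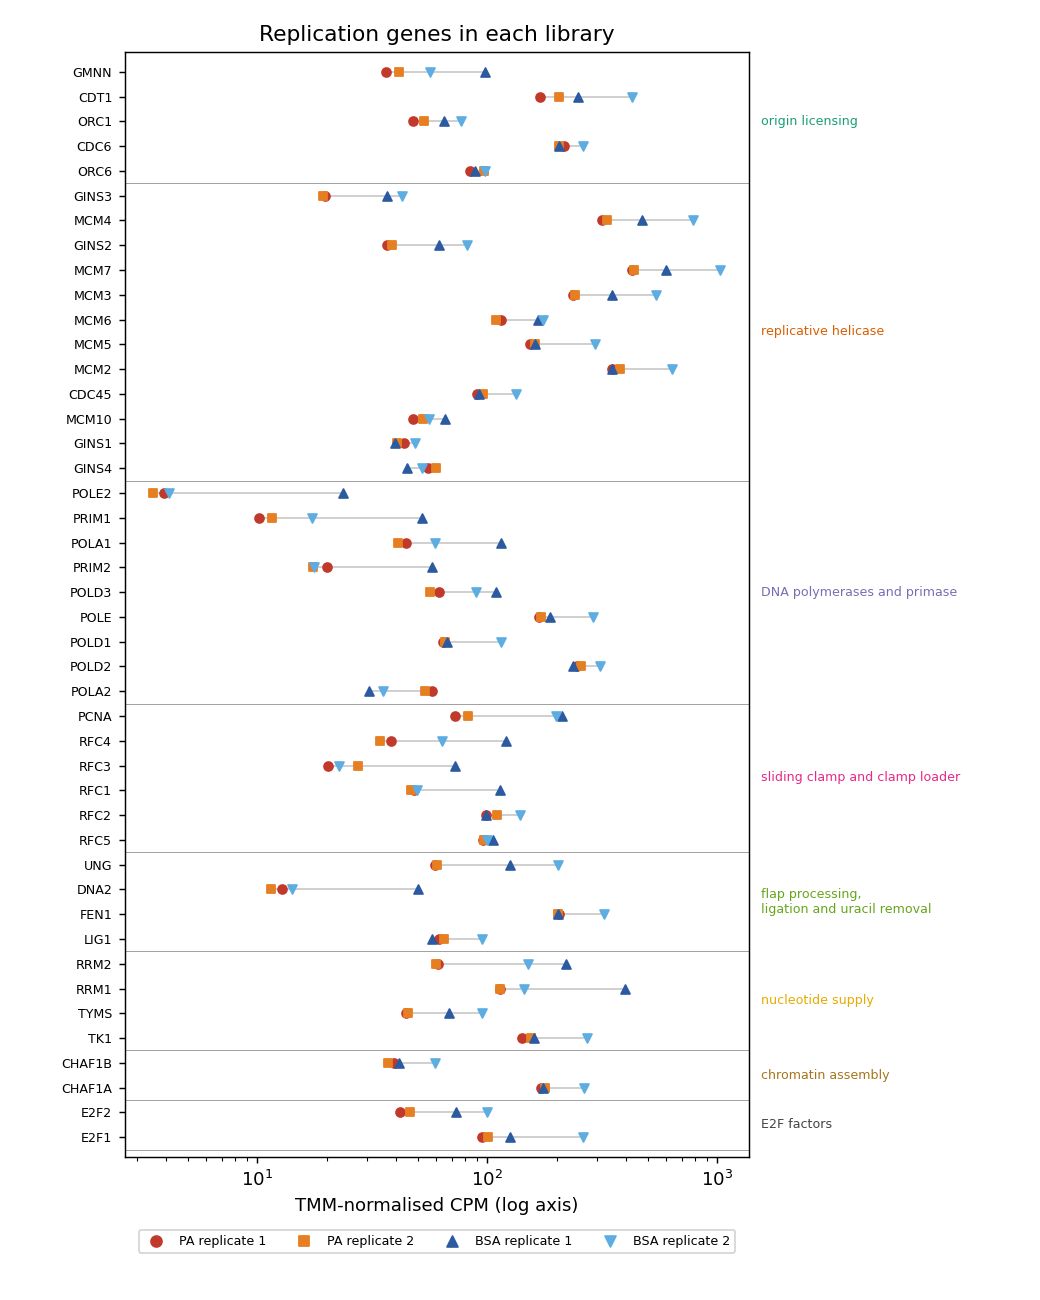
TMM-normalised CPM (log axis) of the 44 replication genes in each of the 2 libraries labelled PA (red circle, orange square) and the 2 labelled BSA (dark and light blue triangles), by role and then by log2 fold change. PA points mostly sit together at the left of each line, while BSA points often lie apart, as for POLE2, with 3.92 and 3.52 CPM under PA and 23.5 and 4.11 CPM under BSA.

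Since the BSA libraries differed, the libraries labelled PA were set against each of them singly, with counts scaled to library totals. A gene was counted when both PA libraries were past 1.5-fold, and with 1 library on the BSA side there was no test. Against BSA replicate 1, 21 of the 44 genes were lower in the PA libraries, beside 30.0% of all genes tested, and 1 (POLA2) was higher, beside 19.1%. Against BSA replicate 2, 25 were lower in the PA libraries, beside 19.9% of all genes, and 0 were higher, beside 18.9%. Against each of the 2 BSA libraries, 12 genes were lower in the PA libraries, beside 11.0% of all genes, and 0 were higher, beside 10.9%. These 12 were the helicase genes MCM3, MCM4, MCM6, GINS2 and GINS3, the primase subunit PRIM1, the clamp PCNA and its loader subunit RFC4, the uracil glycosylase UNG, the nucleotide enzymes RRM2 and TYMS, and E2F2. With TMM factors in place of library totals, MCM3, MCM4 and MCM6 were not past the fold against BSA replicate 1, nor PRIM1 against BSA replicate 2, and POLA2 was past it, as higher in PA, against both. The 2 comparisons share the PA libraries, so they are not independent of each other.

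Another 9 genes were past the fold only against BSA replicate 1, namely GMNN, POLA1, PRIM2, POLD3, POLE2, RFC1, RFC3, DNA2 and RRM1. A further 13 were past it only against BSA replicate 2, namely ORC1, CDT1, MCM2, MCM5, MCM7, POLD1, POLE, FEN1, LIG1, TK1, CHAF1A, CHAF1B and E2F1. ORC6, CDC6, MCM10, CDC45, GINS1, GINS4, POLD2, RFC2 and RFC5 were past it against neither. No share of all genes tested was worked out for these sets, so their sizes are not read as a trait of replication genes. Near the threshold against BSA replicate 1, MCM4 had a log2 ratio of -0.64 and was past 1.5-fold, whereas MCM7, at -0.57, was not. Against BSA replicate 2, LIG1 was past 1.5-fold at -0.63, and GMNN, at -0.59 for the PA mean and -0.51 for PA replicate 2, was not. The mean of the PA libraries lay below both BSA libraries for 39 of the 44 genes. For this count too, the share over all genes tested was not worked out. For PRIM2, RFC3 and LIG1 the 2 single comparisons differed in sign.

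**Figure D2:**
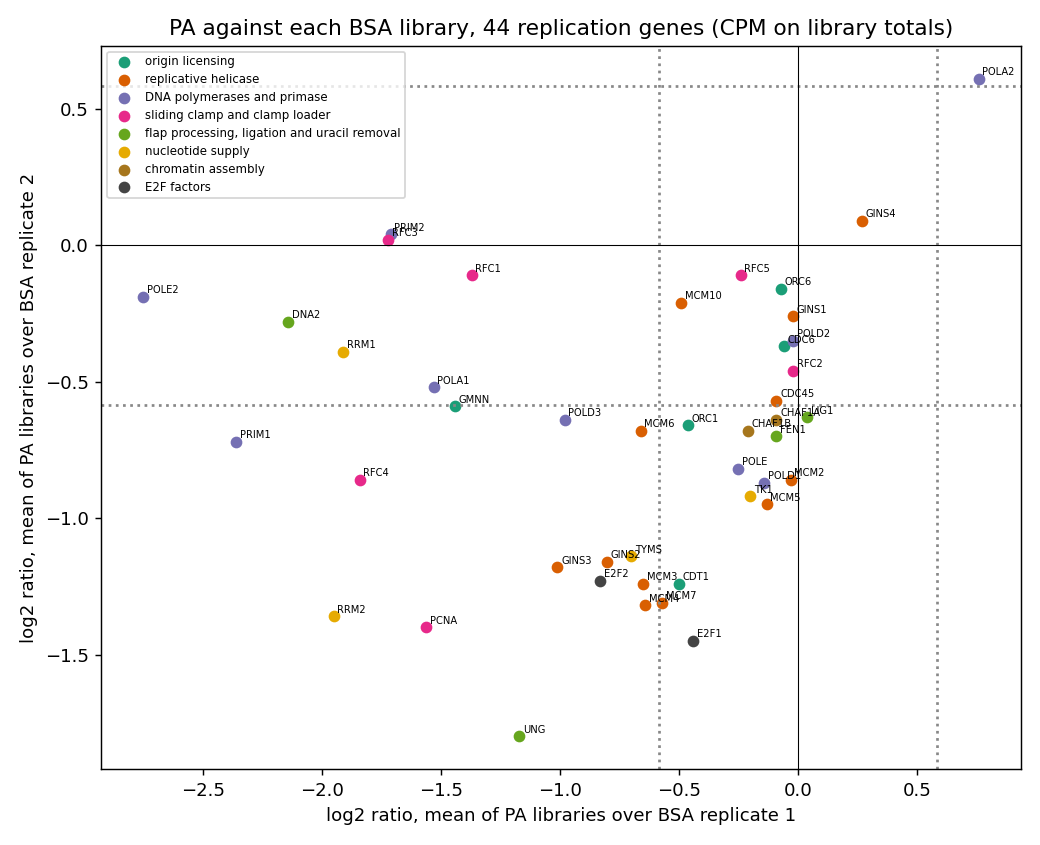
Log2 ratio of the PA mean over BSA replicate 1 (x axis) and over BSA replicate 2 (y axis) for the 44 replication genes, in CPM on library totals, coloured by role; dotted lines mark 1.5-fold. RRM2, PCNA and UNG lie far below 0 on both axes, POLE2 and DNA2 on the x axis mainly, E2F1 and MCM7 on the y axis mainly, and POLA2 alone lies well above 0 on both.

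The promoters of the genes were read because E2F factors bind many replication genes and E2F1 and E2F2 are themselves in the set. Of the 44 genes, 39 had a window of 250 bases before the start in the RefSeq promoter table (build GRCh38.p14). DNA2, GINS4, MCM4, MCM5 and POLD3 had no window. The E2F-type letters TTTCCCGC, TTTGCCGC, TTTCGCGC or TTTGGCGC stood on either strand in 16 of the 39 (41.0%), beside 5.30% of the 12011 tested genes found in the table. Matches may overlap, as TTTGGCGC and the reverse complement of TTTCGCGC do in MCM6. Among genes with a single window the shares were 40.0% of 30 replication genes and 4.35% of 8711 tested genes. The letters CCAAT, on either strand, stood in 24 of the 39 (61.5%), beside 40.6% of tested genes. A match is a run of letters and was not tested as a site. Only these exact letters were searched, so a window without a match may still hold a site.

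Stretches of 60 bases around the first match are shown for the genes with these letters that were past 1.5-fold against each BSA library, and for POLA2, which has the letters and was higher in the libraries labelled PA. Each is written 5′ to 3′ on the strand of the gene, and capitals mark the E2F-type letters, which read GCGGGAAA where TTTCCCGC lies on the other strand.
PCNA, chr20:5126648-5126707, minus strand: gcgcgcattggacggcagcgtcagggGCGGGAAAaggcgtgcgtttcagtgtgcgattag
UNG, chr12:109098083-109098142, plus strand: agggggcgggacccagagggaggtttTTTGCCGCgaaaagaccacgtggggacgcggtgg
TYMS, chr18:657588-657647, plus strand: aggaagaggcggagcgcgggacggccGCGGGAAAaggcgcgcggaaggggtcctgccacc
GINS2, chr16:85688955-85689014, minus strand: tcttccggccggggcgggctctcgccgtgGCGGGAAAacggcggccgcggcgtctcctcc
MCM3, chr6:52284883-52284942, minus strand: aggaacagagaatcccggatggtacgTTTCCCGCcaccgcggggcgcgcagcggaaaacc
MCM6, chr2:135876562-135876621, minus strand: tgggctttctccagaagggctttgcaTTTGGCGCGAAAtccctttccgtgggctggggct
E2F2, chr1:23531242-23531301, minus strand: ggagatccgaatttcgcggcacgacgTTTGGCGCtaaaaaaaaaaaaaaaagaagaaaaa
POLA2, chr11:65261883-65261942, plus strand: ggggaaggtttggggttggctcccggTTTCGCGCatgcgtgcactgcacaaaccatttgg

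Of the 12 genes past 1.5-fold lower against each BSA library, 11 were in the promoter table and 7 had the letters. Of the other 28 in the table, 9 had them (CDT1, E2F1, GMNN, LIG1, MCM7, POLA1, POLA2, POLE and RFC3). The median log2 fold change was -0.93 over the 16 genes with the letters, with a range of -1.45 to 0.76. It was -0.44 over the 23 genes without them, with a range of -1.89 to -0.04. The 2 ranges overlap through most of their length, and RRM2, among the genes without the letters, had a lower log2 fold change than any gene with them.

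Among the origin licensing genes the median log2 fold change was -0.49 (n = 5), and both libraries labelled PA lay below both labelled BSA for GMNN, CDT1 and ORC1. Geminin mRNA (GMNN) stood at 36.1 and 41.1 CPM in the libraries labelled PA, against 97.7 and 56.2 CPM in the libraries labelled BSA. The groups did not overlap, but the BSA libraries lay further apart than BSA replicate 2 lay from PA, and the log2 fold change was -1.0 ± 0.34 (SE, edgeR adjusted p = 0.173). CDT1, the loading factor that geminin holds, had 170 and 206 CPM in the libraries labelled PA, against 247 and 427 CPM in the libraries labelled BSA. Here BSA replicate 2 was the high library, opposite to GMNN, and the log2 fold change was -0.84 ± 0.33 (SE, edgeR adjusted p = 0.205). ORC1, the largest subunit of the origin recognition complex, gave 47.5 and 53.0 CPM in the libraries labelled PA, against 64.6 and 77.0 CPM in the libraries labelled BSA. Its groups were close and did not overlap, with a log2 fold change of -0.49 ± 0.23 (SE, edgeR adjusted p = 0.255). CDC6 and ORC6 overlapped between the groups, with log2 fold changes of -0.15 and -0.04.

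The replicative helicase genes had a median log2 fold change of -0.57 (n = 12). Per length, in FPKM, MCM7 was the highest of all 44 genes in both groups, with a mean of 95.3 FPKM in the libraries labelled PA and 189 FPKM in the libraries labelled BSA. The order of the 6 ring subunits in FPKM was MCM7, MCM2, MCM3, MCM4, MCM6 and MCM5 in each library labelled PA. In each library labelled BSA it was MCM7, MCM3, MCM2, MCM4, MCM6 and MCM5, so that only the order of MCM2 and MCM3 differed. The highest subunit stood at 4.62 and 4.42 times the lowest in the libraries labelled PA, against 6.13 and 5.80 times in the libraries labelled BSA. All 6 had negative log2 fold changes, between -0.95 for MCM4 and -0.44 for MCM2, and their median was -0.75. Set against BSA replicate 1 that median was -0.61, set against replicate 2 it was -1.10, and all 6 were past 1.5-fold lower in PA than in BSA replicate 2.

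MCM3 had 235 and 240 CPM in the libraries labelled PA, against 347 and 544 CPM in the libraries labelled BSA. Both BSA libraries were above both PA libraries, and the log2 fold change was -0.91 ± 0.28 (SE, edgeR adjusted p = 0.157). The GINS subunits split, with GINS2 and GINS3 lower in the libraries labelled PA, GINS1 near 0 (log2 fold change -0.07) and GINS4 above 0. GINS3 gave 19.6 and 19.3 CPM in the libraries labelled PA, against 36.6 and 42.6 CPM in the libraries labelled BSA. The replicates of each group were close together, and the log2 fold change was -1.02 ± 0.26 (SE, edgeR adjusted p = 0.116). GINS2 gave 36.8 and 38.6 CPM in the libraries labelled PA, against 61.5 and 81.8 CPM in the libraries labelled BSA, a log2 fold change of -0.93 ± 0.25 (SE, edgeR adjusted p = 0.130). Its overlapping neighbour on the other strand, GSE1, had up to 686% of its count, and whether the counting used strand is not given in the sources used here. GINS4 had 55.1 and 60.0 CPM in the libraries labelled PA, against 44.7 and 52.2 CPM in the libraries labelled BSA. The gap between the groups was small beside the spread within them, and the log2 fold change was 0.25 ± 0.23 (SE, edgeR adjusted p = 0.522). MCM10, which helps to activate the helicase, and CDC45 both had a log2 fold change of -0.28.

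DNA polymerase and primase genes had a median log2 fold change of -0.74 (n = 9), with the widest range of any role, -1.89 (POLE2) to 0.76 (POLA2). PRIM1, the catalytic subunit of primase, had 10.2 and 11.6 CPM in the libraries labelled PA, against 52.2 and 17.3 CPM in the libraries labelled BSA. BSA replicate 1 stood far above the other 3 libraries, and the log2 fold change was -1.68 ± 0.58 (SE, edgeR adjusted p = 0.177). PRIM1 overlaps NACA on the same strand, which had 5516 and 5533 counts in the libraries labelled PA, against 11290 and 8805 counts in the libraries labelled BSA. PRIM2, the regulatory subunit, had 20.1 and 17.5 CPM in the libraries labelled PA, against 57.5 and 17.6 CPM in the libraries labelled BSA. Only BSA replicate 1 stood apart, the groups overlapped, and the log2 fold change was -1.0 ± 0.59 (SE, edgeR adjusted p = 0.336).

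POLD3, an accessory subunit of polymerase delta, had 61.5 and 56.6 CPM in the libraries labelled PA, against 109 and 88.9 CPM in the libraries labelled BSA. Its groups were apart in every library, with a log2 fold change of -0.74 ± 0.22 (SE, edgeR adjusted p = 0.148). POLA2, the regulatory B subunit of polymerase alpha, had 57.3 and 53.6 CPM in the libraries labelled PA, against 30.6 and 35.1 CPM in the libraries labelled BSA. Both PA libraries were above both BSA libraries, the opposite of the catalytic subunit POLA1 (44.4 and 40.9 CPM under PA, against 115 and 59.4 CPM under BSA). The log2 fold change of POLA2 was 0.76 ± 0.24 (SE, edgeR adjusted p = 0.155). A further gene on its strand, ENSG00000285816, overlaps POLA2 and had up to 13.4% of its count. POLE and POLD1, the catalytic subunits of polymerases epsilon and delta, each had a log2 fold change of -0.49, and POLD2 had -0.12.

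PCNA had the smallest p-value of the 44 genes. It stood at 72.3 and 82.3 CPM in the libraries labelled PA, against 212 and 198 CPM in the libraries labelled BSA. Replicates lay close together in both groups, and the log2 fold change was -1.41 ± 0.20 (SE, edgeR adjusted p = 0.0689), or 2.65-fold higher in BSA. The gene lies at chr20:5114953-5126626 on the minus strand (hg38), and GENCODE 29 names pseudogenes for it, with which it may share reads. The clamp loader subunits had a median log2 fold change of -0.79, with -1.37 for BSA replicate 1 alone and -0.11 for BSA replicate 2 alone.

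RFC4 had 38.0 and 34.3 CPM in the libraries labelled PA, against 121 and 63.6 CPM in the libraries labelled BSA. Both BSA libraries were higher, BSA replicate 1 the more so, and the log2 fold change was -1.35 ± 0.37 (SE, edgeR adjusted p = 0.128). RFC4 overlaps EIF4A2 on the other strand, with 4906 and 2584 counts in the libraries labelled PA, against 13022 and 4871 counts in the libraries labelled BSA. RFC1, the largest loader subunit, had 47.9 and 46.8 CPM in the libraries labelled PA, against 114 and 49.6 CPM in the libraries labelled BSA, a log2 fold change of -0.79 ± 0.43 (SE, edgeR adjusted p = 0.305). In RFC1, BSA replicate 2 was near the PA libraries and replicate 1 was far above them. RFC3 had 20.3 and 27.5 CPM in the libraries labelled PA, against 72.6 and 22.6 CPM in the libraries labelled BSA, and its groups overlapped (log2 fold change -0.99 ± 0.59, SE, edgeR adjusted p = 0.337). RFC2 and RFC5 had log2 fold changes of -0.19 and -0.10.

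UNG, the glycosylase that removes uracil from DNA, had 59.5 and 60.2 CPM in the libraries labelled PA, against 126 and 202 CPM in the libraries labelled BSA. The PA libraries were nearly equal and both BSA libraries were well above them, with a log2 fold change of -1.45 ± 0.29 (SE, edgeR adjusted p = 0.0869). UNG overlaps ACACB on the same strand, which had up to 38.1% of its count. DNA2, a nuclease that trims long flaps, had 12.8 and 11.5 CPM in the libraries labelled PA, against 49.9 and 14.2 CPM in the libraries labelled BSA. Here again only BSA replicate 1 was far away, and the log2 fold change was -1.40 ± 0.63 (SE, edgeR adjusted p = 0.245). FEN1, the main flap endonuclease, had 206 and 203 CPM in the libraries labelled PA, against 204 and 323 CPM in the libraries labelled BSA (log2 fold change -0.37 ± 0.28, SE, edgeR adjusted p = 0.444). LIG1, which seals the fragments, had 61.8 and 64.8 CPM in the libraries labelled PA, against 57.6 and 94.6 CPM in the libraries labelled BSA (log2 fold change -0.27 ± 0.30, SE, edgeR adjusted p = 0.603). For FEN1 and LIG1, BSA replicate 1 lay among or below the PA libraries and the groups overlapped. FEN1 overlaps FADS2 on the same strand, which had up to 33.9% of its count.

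Nucleotide supply had a median log2 fold change of -1.06 (n = 4), or -0.84 after correction for GC content and length. In all 4 genes both PA libraries lay below both BSA libraries. RRM2, the small subunit of ribonucleotide reductase, had 60.8 and 59.9 CPM in the libraries labelled PA, against 219 and 150 CPM in the libraries labelled BSA. Both BSA libraries stood well above the PA libraries, with a log2 fold change of -1.61 ± 0.26 (SE, edgeR adjusted p = 0.0724), or 3.06-fold higher in BSA. RRM1, the large subunit, had 114 and 114 CPM in the libraries labelled PA, against 399 and 145 CPM in the libraries labelled BSA. Most of the RRM1 gap lay in BSA replicate 1, and the log2 fold change was -1.26 ± 0.50 (SE, edgeR adjusted p = 0.211). TYMS, which makes thymidylate, had 44.1 and 45.0 CPM in the libraries labelled PA, against 67.8 and 95.2 CPM in the libraries labelled BSA (log2 fold change -0.87 ± 0.26, SE, edgeR adjusted p = 0.148). TK1, the thymidine salvage kinase, had 142 and 155 CPM in the libraries labelled PA, against 160 and 272 CPM in the libraries labelled BSA (log2 fold change -0.54 ± 0.31, SE, edgeR adjusted p = 0.325). For TYMS and TK1 it was BSA replicate 2 that stood highest. TYMS overlaps ENOSF1 on the other strand, which had up to 325% of its count.

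The chromatin assembly factor subunits, which place histones on new DNA, had a median log2 fold change of -0.36 (n = 2). CHAF1A had 171 and 179 CPM in the libraries labelled PA, against 174 and 263 CPM in the libraries labelled BSA (log2 fold change -0.32 ± 0.27, SE, edgeR adjusted p = 0.474). CHAF1B had 39.4 and 37.0 CPM in the libraries labelled PA, against 41.3 and 59.5 CPM in the libraries labelled BSA (log2 fold change -0.40 ± 0.28, SE, edgeR adjusted p = 0.406). In both genes BSA replicate 1 was close to the PA libraries. CHAF1B overlaps MORC3 on the same strand, which had up to 77.6% of its count. CHAF1A overlaps UBXN6 on the other strand, which had up to 77.1% of its count. E2F1 had 95.1 and 101 CPM in the libraries labelled PA, against 125 and 260 CPM in the libraries labelled BSA (log2 fold change -0.97 ± 0.39, SE, edgeR adjusted p = 0.211). E2F2 had 41.6 and 46.0 CPM in the libraries labelled PA, against 72.9 and 99.7 CPM in the libraries labelled BSA (log2 fold change -0.98 ± 0.26, SE, edgeR adjusted p = 0.122). The groups did not overlap for either factor, and BSA replicate 2 was the higher BSA library for both.

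Set against the BSA libraries singly, the roles stood in different orders. The clamp and its loader had a median log2 ratio of -1.46 against BSA replicate 1 and -0.29 against BSA replicate 2. Polymerases and primase had -0.98 and -0.52 in the same order, the helicase -0.53 and -0.91, and licensing -0.46 and -0.59. The E2F factors had -0.64 against replicate 1 and -1.34 against replicate 2, and chromatin assembly -0.15 and -0.66. Nucleotide supply was low against both, at -1.31 and -1.03, and flap processing had -0.63 and -0.66. That even median hid genes that differed between the BSA libraries, with DNA2 at -2.14 and -0.28, UNG at -1.17 and -1.80, FEN1 at -0.09 and -0.70, and LIG1 at 0.04 and -0.63. Medians over all genes tested were -0.15 and -0.05. No difference between roles was tested.

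**Figure D3:**
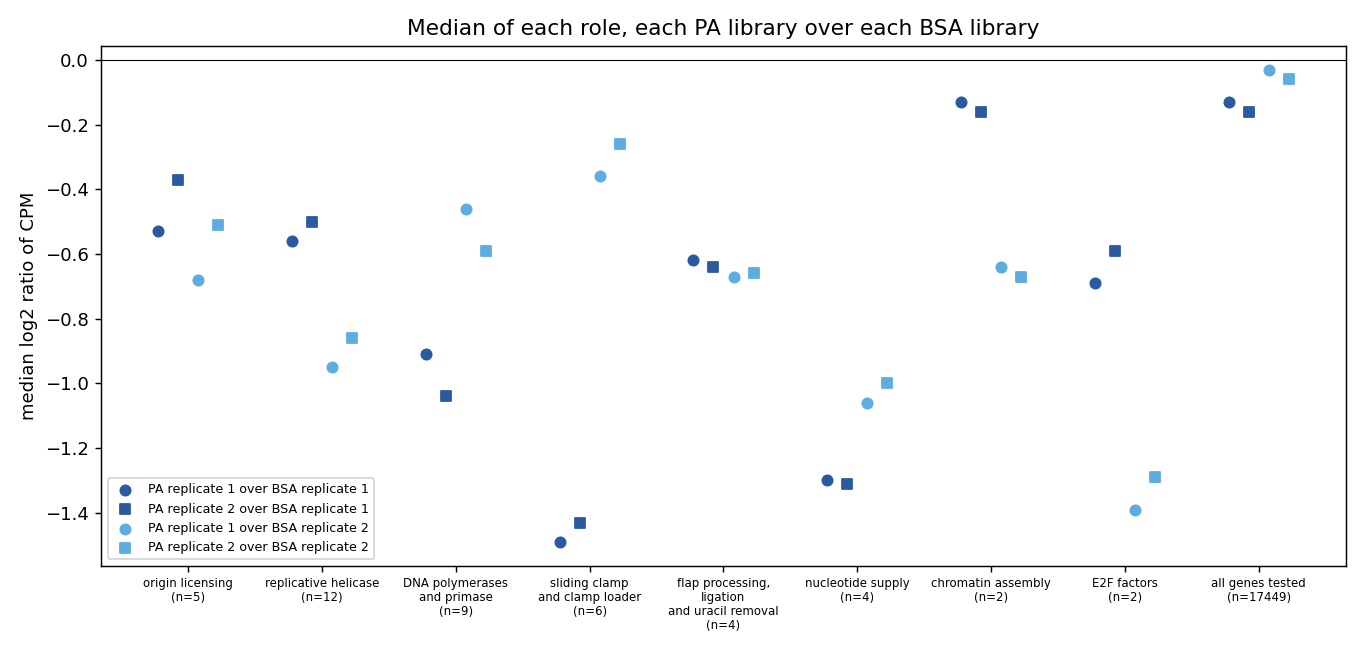
Median log2 ratio of CPM (library totals) of each role, for each library labelled PA over each library labelled BSA (PA replicate as circle or square, BSA replicate 1 dark and 2 light blue), with n genes per role and all genes tested at the right. The 2 PA libraries give nearly the same median, whereas the BSA library sets it apart for the clamp and its loader (-1.46 and -0.29 for the PA mean) and hardly for flap processing (-0.63 and -0.66), whose single genes differ more.

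The BSA library against which a gene was lower went with the GC content of its transcript. Over the 44 genes, Spearman's rho of GC content with the log2 ratio of BSA replicate 2 over BSA replicate 1 was 0.86, beside 0.59 over 16596 tested genes with a known GC content. With the ratio of the PA mean over BSA replicate 1 it was 0.58 (0.47 over the 16596 genes), and with the ratio over BSA replicate 2 it was -0.45 (-0.08). Between the PA libraries it was 0.34 (0.14). These are correlations across genes that share the same libraries, and genes are not independent replicates. Split at the median GC content of 48.6%, the 22 genes at or under it had a median log2 ratio of -1.40 against BSA replicate 1 and -0.38 against BSA replicate 2. The 22 genes over it had -0.21 and -0.87. Tested genes at or under that GC content had medians of -0.68 and 0.01, and those over it 0.23 and -0.11. On either side of that GC content, and against both BSA libraries, the replication genes thus had the lower medians.

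**Figure D4:**
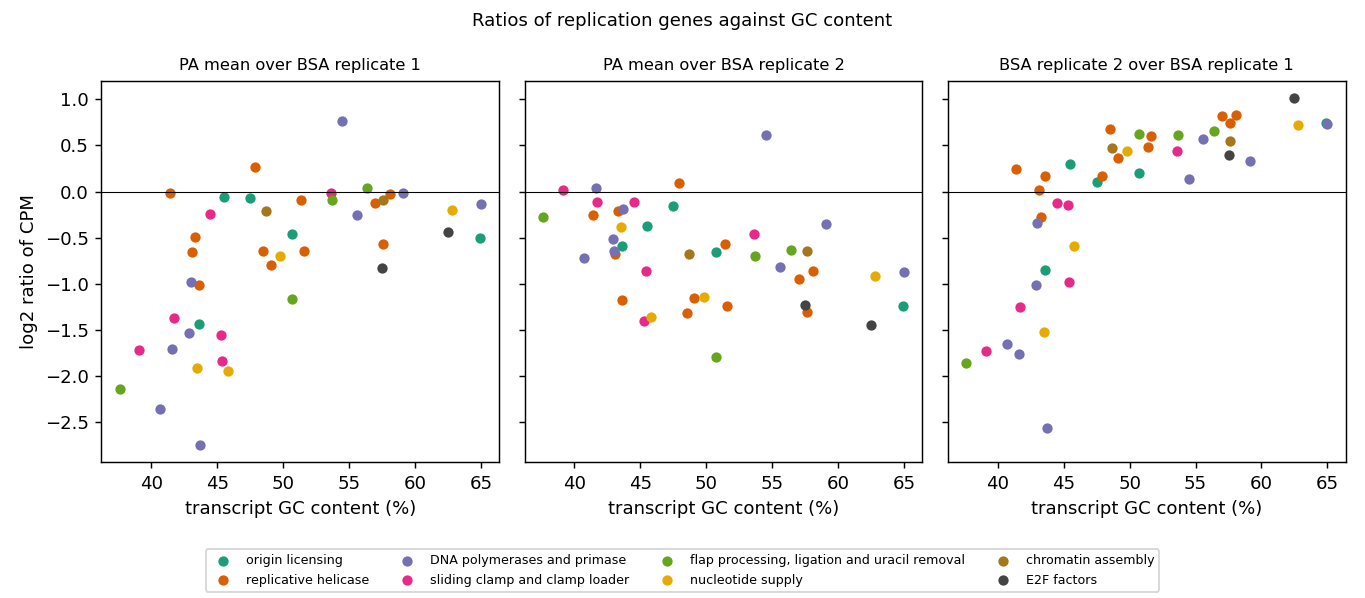
Log2 ratio of CPM (y axis) against transcript GC content in percent (x axis) for the 44 replication genes, coloured by role, for PA over BSA replicate 1, PA over BSA replicate 2 and BSA replicate 2 over replicate 1. The ratio goes up with GC content in the left and right panels (rho 0.58 and 0.86) and down in the middle one (rho -0.45).

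After correction for GC content and transcript length (a fitted trend was subtracted), the median log2 fold change of the 44 genes was -0.63, and edgeR called 7 of them lower in the libraries labelled PA, beside 2.72% of the 16596 genes, and 0 higher, beside 5.31%. The 7 were the helicase subunits MCM3 and MCM7, the polymerase POLE, PCNA, UNG, RRM2 and E2F2. PCNA, UNG and RRM2 were also among those called by DESeq2 without that correction. With BSA replicate 1 left out, edgeR called 33 genes lower in PA, beside 22.6% of all genes, and 1 (POLA2) higher, beside 25.3%. With BSA replicate 2 left out, it called 26 lower in PA, beside 30.0%, and 2 (GINS4 and POLA2) higher, beside 27.3%. In those fits the lone BSA library is assumed to vary like the PA libraries, whose spread was the smaller, so the calls rest on that assumption.

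Other genes of replication, from a list of 48 that were all tested, had a median log2 fold change of -0.85. Below 0 were 43, beside 9754 of all 17449 genes tested. Of these 48 genes, 16 were lower in the libraries labelled PA at an unadjusted p under 0.05, beside 11.2% of all genes tested. Higher at that p were 2, beside 13.1%. In the single comparisons, 11 were past 1.5-fold lower against each BSA library, beside 11.0% of all genes, and 1 was higher, beside 10.9%. DUT, which clears dUTP, had 32.3 and 33.9 CPM in the libraries labelled PA, against 72.9 and 73.5 CPM in the libraries labelled BSA (log2 fold change -1.15 ± 0.22, SE, edgeR adjusted p = 0.0845). The replicates of each group were nearly equal for DUT, the BSA libraries included. The dNTP hydrolase SAMHD1 and the PCNA partner PCLAF had log2 fold changes of -1.22 and -1.46.

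Of 28 E2F, RB and S phase cyclin regulators, 27 were tested, with a median log2 fold change of -0.53. Of these, 22 were below 0, beside 9754 of all 17449 genes tested. At an unadjusted p under 0.05, 6 were lower in the libraries labelled PA, beside 11.2% of all genes tested, and 0 higher, beside 13.1%. The values of this list depended on the BSA library. With BSA replicate 1 as reference, its median log2 ratio was -0.73 and 16 genes were past 1.5-fold lower, beside 30.0% of all genes. Replicate 2 as reference gave -0.27 and 6 genes, beside 19.9%. Past the fold as higher were 1 gene (19.1%) and 0 genes (18.9%), in the same order. CCNE2, a cyclin of the G1 to S transition, had 3.06 and 4.44 CPM in the libraries labelled PA, against 30.5 and 12.5 CPM in the libraries labelled BSA (log2 fold change -2.52 ± 0.55, SE, edgeR adjusted p = 0.0960). Both BSA libraries were above the PA libraries, replicate 1 the more so. The E2F dimer partners TFDP1 and TFDP2 had log2 fold changes of -0.90 and -0.85, and the repressor E2F8 had -1.08.

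Mitosis genes, a list of 36 that were all tested, had a median log2 fold change of -0.12, the same as all genes tested. Of the 36, 20 were below 0 and 16 above, beside 9754 below and 7695 above of all 17449 genes tested. At an unadjusted p under 0.05, 1 was lower in the libraries labelled PA, beside 11.2% of all genes, and 1 higher, beside 13.1%. Past 1.5-fold lower against each BSA library were 0, beside 11.0%. Against BSA replicate 1 alone, 13 were lower (30.0% of all genes) and 6 higher (19.1%), with a median log2 ratio of -0.24. Against BSA replicate 2 alone, 1 was lower (19.9%) and 0 higher (18.9%), with a median of 0.07. PTTG1 (securin) had 117 and 101 CPM in the libraries labelled PA, against 75.0 and 74.2 CPM in the libraries labelled BSA (log2 fold change 0.55 ± 0.21, SE, edgeR adjusted p = 0.199). CDK1, the mitotic kinase, had 28.6 and 40.0 CPM in the libraries labelled PA, against 195 and 45.8 CPM in the libraries labelled BSA (log2 fold change -1.81 ± 0.70, SE, edgeR adjusted p = 0.205). The CDK1 gap lay almost wholly in BSA replicate 1. KIF11, a spindle motor, and BUB3, a checkpoint protein, had log2 fold changes of -1.23 and -0.46. The difference between the mitosis list and the replication genes was not tested.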

How the data were processed

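RNA from 4 TOV-112D libraries was prepared with a NEBNext Ultra kit from total RNA, per the labels' protocols. HISAT2, StringTie and SAMtools with the hg38 build are named in the submitters' processing notes; no version, annotation or strand setting is given in the sources used. Whole-number read counts per gene and FPKM, the same reads scaled by length and depth by the authors, make up the deposited table, per the file headers. At these depths 1 CPM is 23.7 to 31.7 counts.

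The main test was edgeR 4.0.16 run in R 4.3.3 on the counts (TMM, filterByExpr, quasi-likelihood F test, Benjamini-Hochberg at 0.05, no replicate block); 17449 of 28973 genes were tested. Standard errors were taken as |log2 fold change| over the root of F. An exact permutation test of 2 against 2 libraries cannot go below 0.333. FPKM served for levels between genes. Single comparisons used CPM on library totals with 0.5 added to counts. The other CPM values given for genes and lists used TMM factors. Alternatives were DESeq2 1.42.0, limma 3.58.1 (voom, and log2 of FPKM plus 1 or 0.1), other factors, filters and thresholds, a replicate block, each library left out, and offsets from a loess curve (span 0.3) fitted to GC content and length of the longest GENCODE 29 transcript, known for 95.1% of tested genes. The procedure was also run on simulated counts. These had the same spread in both groups and no trend with GC content, unlike the libraries here. That run therefore does not show how the test behaves on these libraries. Of the 44 genes, 22 overlap another gene of the table, and 11 of these have overlapping genes at 10% or more of their count. The 11 are GINS1, GINS2, POLA2, PRIM1, RFC4, RFC5, FEN1, UNG, TYMS, CHAF1A and CHAF1B. Named pseudogenes in GENCODE 29 exist for 8 of the 44. PTPRC was not analysed here.

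Each gene is named in its role. Full values are given for the 3 of smallest p in each role (all in roles of 4 or fewer) and for those with a positive log2 fold change or with opposite signs against the 2 BSA libraries. Of each other pathway list up to 4 genes of smallest p are named. A gene that this rule would name is not reported here. The replication genes, the lists, the motifs and the trend correction were chosen with earlier results of these data known. Figures were drawn with matplotlib 3.10.9.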

Additional observations from a re-analysis of the deposited data

How the results depend on the processing

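The number of genes called by edgeR was 0. It was 0 also with RLE or upper quartile factors, library totals only, or a filter of 1 CPM in 2 libraries. It was 1302 with no filter, 1824 with DESeq2, 1333 with the GC and length trend removed, and 1 each with limma-voom and with limma on log2(FPKM + 1) or log2(FPKM + 0.1). Leaving out a library gave 9 (without PA replicate 2) to 10467 (without BSA replicate 2) calls, with 16 without PA replicate 1 and 8842 without BSA replicate 1. The replicate block gave 537 calls and a median of -0.70 over the 44 genes. Of these 44 it called 3 lower in PA (PCNA, UNG and RRM2, beside 0.774% of all genes) and 0 higher (2.30%). With no filter edgeR called 4 of them lower in PA (PCNA, RFC4, UNG and RRM2, beside 1.66% of all genes) and 0 higher (3.06%). The difference between the PA libraries and that between the BSA libraries had a correlation of 0.008 across genes. With a single difference per group, this value cannot tell whether the replicate numbers pair the libraries.

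The median log2 fold change of the 44 genes, -0.77, kept its sign. It was -0.84 with library totals only, -0.70 with limma-voom, -0.69 on log2(FPKM + 1), -0.63 with the trend removed, and -0.72 to -0.42 with a library left out (-0.42 without BSA replicate 2). The cause was not tested.
Leaving out each library in turn gave role medians of -0.56 to -0.35 for licensing, -0.84 to -0.42 for the helicase, -0.87 to -0.46 for polymerases and primase, -1.35 (without BSA replicate 2) to -0.22 (without BSA replicate 1) for the clamp and its loader, -0.88 to -0.53 for flap processing, -1.20 to -0.97 for nucleotide supply, -0.59 to -0.04 for chromatin assembly and -1.28 to -0.53 for the E2F factors. With the trend removed the medians were -0.62 for licensing, -0.77 for the helicase, -0.34 for the clamp, -0.84 for nucleotide supply, -0.65 for polymerases and primase, -0.58 for flap processing, -0.56 for chromatin assembly and -1.20 for the E2F factors, which then stood lowest.

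Some log2 fold changes of single genes changed sign with a library left out. Their lowest and highest values over the 4 libraries left out were -0.13 and 0.09 for ORC6, -0.30 and 0.05 for CDC6, -0.79 and 0.08 for MCM2, -0.50 and 0.02 for CDC45, -0.19 and 0.09 for GINS1, -0.28 and 0.09 for POLD2, -0.39 and 0.09 for RFC2, -0.64 and 0.01 for FEN1, -0.56 and 0.15 for LIG1 and -0.57 and 0.02 for CHAF1A, each above 0 without BSA replicate 2 (ORC6, at 0.04, and also without PA replicate 1). They were -1.60 and 0.12 for PRIM2 and -1.60 and 0.09 for RFC3, above 0 without BSA replicate 1. With the trend removed, ORC6 was at 0.09, GINS1 at 0.17 and RFC5 at 0.12. At a 2-fold threshold, 13 genes were lower in PA than in BSA replicate 1 (19.4% of all genes) and 0 higher (9.94%), and 12 were lower than in BSA replicate 2 (10.4%). At 1.5-fold with TMM factors, 1 (POLA2) was higher in PA than in BSA replicate 2 (20.2%). With 2 libraries a group and BSA libraries that differ with GC content, an adjusted p that misses the threshold does not show that a gene was the same in both groups.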

Other observations

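Among the marker genes, those of ovarian epithelium that differed most were higher in the libraries labelled PA, none past an edgeR adjusted p of 0.05. Of the 10 tested markers on that list, 7 had a log2 fold change above 0 and 3 below. Those below were KRT7 (-0.09), CDH1 (-0.56) and ESR1 (-0.39), and KRT18 (0.15) and EPCAM (0.00) were near 0. CDH1, ESR1 and EPCAM had few counts. MSLN (mesothelin) had 272 and 267 CPM in the libraries labelled PA, against 96.1 and 97.1 CPM in the libraries labelled BSA, a log2 fold change of 1.48 ± 0.19 (SE, edgeR adjusted p = 0.0617). MUC16, which carries the CA125 epitope, had 43.7 and 41.1 CPM in the libraries labelled PA, against 15.3 and 12.1 CPM in the libraries labelled BSA (log2 fold change 1.63 ± 0.28, SE, edgeR adjusted p = 0.0762). FOLR1, a folate receptor, had 3736 and 3445 CPM in the libraries labelled PA, against 1172 and 1524 CPM in the libraries labelled BSA (log2 fold change 1.41 ± 0.29, SE, edgeR adjusted p = 0.0883). Of the mesenchymal genes, FN1 (fibronectin) had 281 and 364 CPM in the libraries labelled PA, against 156 and 96.3 CPM in the libraries labelled BSA (log2 fold change 1.35 ± 0.32, SE, edgeR adjusted p = 0.103). VIM (vimentin) had 273 and 391 CPM in the libraries labelled PA, against 522 and 415 CPM in the libraries labelled BSA (log2 fold change -0.50 ± 0.28, SE, edgeR adjusted p = 0.315). CDH5, an endothelial cadherin, had 62 and 32 counts in the libraries labelled PA, against 4 and 5 counts in the libraries labelled BSA. These genes are given as values, chosen as the markers of smallest p with VIM added after its values were seen.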
